A study of Rattus norvegicus with 42 samples.

Results

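Mixtures of rat tissue RNA with the same share of liver were compared: 55% liver, 20% brain and 25% lung against 55% liver, 30% brain and 15% lung, so that 10 points of brain were exchanged for lung. The groups were chosen by their tissue labels, with 3 arrays of 55/20/25 and 3 of 55/30/15, which makes 6 of the 42 arrays of the series. A name such as 55/20/25 gives the labelled percentage of liver first, then of brain, then of lung. Liver, brain and lung came from 1 untreated rat, from animals given as 9 to 12 weeks old, and the labels give neither strain nor sex. The tissues were combined as labelled RNA (cRNA) and hybridised to Affymetrix rat GeneChip arrays, 3 technical replicate arrays per group, to test statistical deconvolution of mixed tissues. P-values therefore measure the spread between arrays of the same RNA and carry nothing about differences between animals. The other groups used here were the 3 pure tissues, which serve to predict the differences, and the mixtures 50/30/20 and 50/40/10, in which the same exchange was made at 50% liver.

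Each organ carries a program of its own cells. Brain RNA is rich in transcripts of synapses, neurotransmitter synthesis, neuropeptides and myelin. Lung RNA comes from alveolar epithelium that makes surfactant and forms the gas exchange surface, from airway cells, and from a dense bed of capillaries, connective tissue and resident immune cells. Hepatocytes of the liver secrete plasma proteins and run the urea cycle, bile acid synthesis and drug oxidation. In a mixture, a transcript present in 1 tissue alone follows the share of that tissue. A transcript of lung alone would differ by 0.74 on the log2 scale between 25% and 15% lung, a 1.67-fold difference. A transcript of brain alone would differ by -0.58 between 20% and 30% brain, and a transcript of liver alone by 0.

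All values are log2 levels after the authors' RMA normalization, and levels of different probe sets are not on a common scale. The 6 arrays had medians between 5.76 and 5.78. The median SD between replicate arrays was 0.08 in 55/20/25 and 0.07 in 55/30/15. Pearson correlations over probe sets were 0.997 to 0.998 within the groups and 0.993 to 0.994 between them. Of 15 marker genes of the pure tissues, 14 were represented, and all 14 were enriched in the pure arrays of their own tissue, which means at least 2-fold over both other tissues at adjusted p under 0.05. Albumin (Alb) was an impure marker, with 14.31 in pure liver, 12.21 in pure brain and 5.07 in pure lung.

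The exchange appeared in the estimated tissue shares. Lung was estimated at 24.5%, 23.8% and 24.1% in the 55/20/25 arrays, against 13.7%, 13.7% and 13.8% in the 55/30/15 arrays. Brain was estimated at 25.5%, 25.4% and 25.6% in 55/20/25, against 36.2%, 36.5% and 36.4% in 55/30/15. Both tissues thus separated the 6 arrays without overlap, by 10.4 points for lung and by -10.8 points for brain, where the labels give 10 and -10. Liver was estimated at 50.4% ± 0.37 in 55/20/25 and 49.9% ± 0.16 in 55/30/15 (SD, n = 3 each), a difference of 0.41 points where the labels give 0. The exact permutation test, two-sided, gave p = 0.1 for lung and brain, the smallest that 3 against 3 arrays can give, and p = 0.2 for liver, or 0.15, 0.15 and 0.2 after Benjamini-Hochberg adjustment over the 3 tissues. In level, the estimates for liver lay below the labelled 55% in all 6 arrays, those for brain lay above the labelled 20% and 30%, and those for lung lay below the labelled 25% and 15%. Estimates without scaling of each probe set to its highest pure mean gave smaller differences, 7.90 points for lung and -7.76 for brain.

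**Figure D1:**
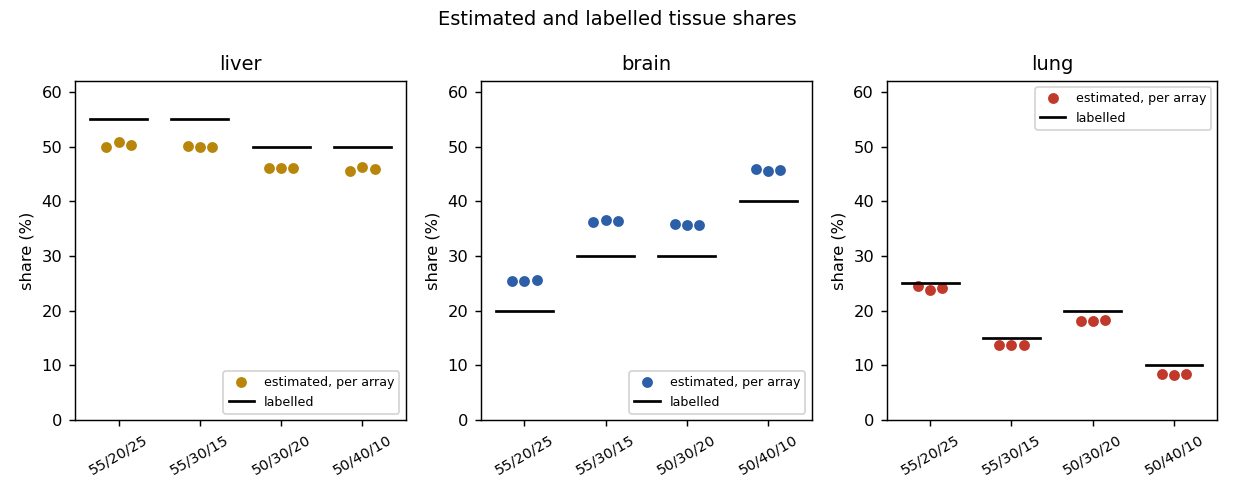
Estimated shares of liver, brain and lung (%, vertical axes) on each array (points) and labelled shares (black lines) in 55/20/25, 55/30/15, 50/30/20 and 50/40/10. The lung estimates of 55/20/25 sit between 23.8% and 24.5%, all above those of 55/30/15 between 13.7% and 13.8%, while the liver estimates of both mixtures lie close to 50%.

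Lung-enriched transcripts rose, brain-enriched transcripts fell and few liver-enriched transcripts changed. In the limma fit over 31042 probe sets (adjusted p under 0.05, no fold limit), 3157 probe sets (10.2%) were higher in 55/20/25 and 2930 (9.44%) were lower, 19.6% in all, with a median of -0.0008 over every probe set. Of 2777 lung-enriched probe sets (8.95% of those tested), 1973 (71.0%) were higher and 0 were lower, with 2753 positive differences. Of 3571 brain-enriched probe sets (11.5%), 2400 (67.2%) were lower and 0 were higher. At an unadjusted p under 0.05 the limma fit also gave 0 lung-enriched probe sets lower and 0 brain-enriched ones higher. Of 2259 liver-enriched probe sets (7.28%), 74 (3.28%) were higher and 2 were lower. In bulk RNA, fewer cells of a type and less RNA per cell cannot be told apart, and here the shares were set by mixing cRNA.

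The changes were small. Probe sets called higher had a median difference of 0.38, from 0.09 to 1.2, and those called lower a median of -0.38, from -0.10 to -0.83. The arrays of 55/20/25 lay wholly above those of 55/30/15 in 3087 of the 3157 probe sets called higher, and wholly below in 2886 of the 2930 called lower. Over all probe sets, the arrays did not overlap in 5732 (18.5%) upward and in 5771 (18.6%) downward. Read from the same fit over all probe sets, with 1 probe set taken per gene, 2083 of 14217 genes were higher and 1460 were lower, among them 1274 lung-enriched and 1202 brain-enriched genes. When each array was shifted to equal hybridisation controls, 722 probe sets were higher and 14 lower, so that 98.1% of calls were higher in place of 51.9%. That shift moved the median of all probe sets from -0.0008 to 0.05. Tissue classes were drawn anew from the shifted values and so held other members than the classes above. Their medians were 0.37 for lung-enriched and -0.30 for brain-enriched probe sets. Among the genes chosen by rule for naming, the shift ended the call of 34 of the 36 that were lower. It ended that of 59 of all 94 that were called, with no change of direction. Snap25, as an example, went from -0.30 (limma adjusted p = 3.53e-04) to -0.25 (limma adjusted p = 0.926). In 60/35/5 replicate 2, an array outside the comparison but in the fit over all arrays, the hybridisation control bioB was at 9.47. Replicates 1 and 3 of that mixture had 8.03 and 7.76. The arrays compared had 7.79 to 8.08. Whether that array led to the loss of calls was not tested.

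Outside the 3 classes, 1110 of 22435 probe sets (4.95%) were higher and 528 (2.35%) were lower. In pure tissue, 762 of those 1110 were at least 2-fold higher in lung than in brain, and 570 had liver and lung both at least 2-fold above brain. Of the 528, 251 were at least 2-fold higher in brain than in lung, and 117 had liver and brain both at least 2-fold above lung.

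Genes of the alveolar epithelium rose with the lung share. Of 11 measured genes of alveolar type 2 cells, which make surfactant and renew the epithelium, 9 were higher and 0 lower, with a median difference of 0.65 over the list against -0.0008 over all probe sets. Sftpb, a surfactant protein needed to spread the lipid film, had levels of 11.001, 10.986 and 10.986 in 55/20/25, against 10.247, 10.320 and 10.147 in 55/30/15. All 3 arrays with more lung were above all 3 with less, and Sftpb was 1.69-fold higher (0.75 ± 0.05 log2, SE, limma adjusted p = 2.63e-11), close to the predicted 0.73. Sftpa1, which encodes a surfactant collectin of innate defence, was 0.64 higher, the lipid transporter gene Abca3 0.38 higher and the mucin gene Muc1 0.81 higher. Sftpc and Etv5 were not called, with differences of 0.23 and -0.09, and Etv5, a transcription factor of type 2 cells, was not lung-enriched in the pure arrays.

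All 9 measured genes of alveolar type 1 cells and caveolae, the thin cells of the gas exchange surface and their membrane pits, were higher, with a median of 0.71 and a range of 0.59 to 0.78. Cav1, the main structural protein of caveolae, had 11.23, 11.18 and 11.21 in 55/20/25, against 10.56, 10.56 and 10.55 in 55/30/15. These groups were separated by far more than their own spread, and the difference of 0.65 ± 0.06 (SE, limma adjusted p = 2.87e-10) matched the predicted 0.65. Ager, a receptor gene used to mark type 1 cells, was 0.69 higher, the water channel gene Aqp5 0.78 higher and Hopx 0.59 higher.

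Of 11 measured airway genes, 8 were higher and 0 lower, with a median of 0.62. Sec14l3, a lipid-binding protein gene of airway epithelium, reached 10.03, 10.09 and 10.04 in 55/20/25, against 9.20, 9.31 and 9.18 in 55/30/15. It was 1.78-fold higher, with no overlap between the groups. The ciliated cell gene Tppp3 was 0.62 higher. Foxj1, Aldh3a1 and Reg3g were not called, with differences of 0.24, -0.15 and -0.14, and none of these was lung-enriched in the pure arrays.

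The vessel and connective tissue lists moved almost as whole lists. All 15 measured endothelial genes were higher, with a median of 0.59 and a range of 0.43 to 0.79. They included the VEGF receptor gene Kdr (0.43 higher), the tight junction gene Cldn5 (0.48 higher) and the angiotensin-converting enzyme gene Ace (0.79 higher). Of 16 matrix genes, 15 were higher, with a median of 0.63. The microfibril-associated gene Mfap4 had 10.92, 10.98 and 10.88 in 55/20/25, against 10.15, 10.17 and 10.07 in 55/30/15, a 1.74-fold difference with no overlap. The collagen gene Col3a1 was 0.63 higher and the calcification inhibitor gene Mgp 0.67 higher. Fn1, which encodes fibronectin, was the matrix gene that was not called, with a difference of 0.13, and it was not lung-enriched. Of 9 smooth muscle genes, 7 were higher, among them the actin-binding protein gene Tagln (0.73 higher), and Des and Lmod1 were not called, with differences of 0.34 and -0.03.

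Immune cell genes followed the lung share as well. Of 18 measured lymphocyte and MHC class II genes, 16 were higher and 0 lower, with a median of 0.66 where 0.45 was predicted. Cd74, the invariant chain that escorts MHC class II molecules, had 10.82, 10.84 and 10.82 in 55/20/25, against 10.20, 10.23 and 10.29 in 55/30/15. The groups did not overlap, and Cd74 was 1.5-fold higher. The MHC class II gene RT1-Da was 0.68 higher, the T cell receptor complex gene Cd3e 0.82 higher and the granzyme gene Gzma 0.84 higher. Cd4 and Cd79b were not called, with differences of 0.06 and 0.29. Of 12 macrophage and granulocyte genes, 11 were higher, with a median of 0.59 where 0.41 was predicted. They included the NADPH oxidase subunit gene Cybb (0.66 higher) and the neutrophil protein genes S100a9 (0.86 higher) and Lcn2 (0.85 higher), and Chi3l1 was not called at 0.35.

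Of 15 measured chemokine and cytokine genes, 9 were higher and 1 was lower, with a median of 0.38. Of all 14217 genes, 2083 were higher and 1460 lower. The neutrophil attractant gene Cxcl3 was 0.72 higher, the interleukin gene Il1b 0.68 higher and the alarmin gene Il33 0.24 higher. Cx3cl1, the chemokine that neurons present to microglia, went the other way. Its levels were 7.85, 7.92 and 7.96 in 55/20/25, against 8.21, 8.36 and 8.28 in 55/30/15, which did not overlap. Cx3cl1 was brain-enriched in the pure arrays (9.53 in brain, 6.75 in lung), and its difference of -0.37 lay close to the predicted -0.38.

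Cardiac muscle genes moved in both directions. The atrial myosin light chain gene Myl7 had 7.03, 6.95 and 6.88 in 55/20/25, against 5.98, 6.04 and 6.03 in 55/30/15. Myl7 was 0.94 higher, without overlap between the groups, and was lung-enriched in the pure arrays, with 8.83 in lung and 3.30 in brain. The cardiac myosin heavy chain gene Myh6 was 0.76 higher and Tnni3, which encodes cardiac troponin I, 0.51 higher. Ryr2, a calcium release channel of heart and brain, was brain-enriched and lower, with a difference of -0.51 (limma adjusted p = 2.75e-06). In all, 5 of 10 measured cardiac genes were higher and 1 was lower, beside 2083 and 1460 of all 14217 genes. The lung-enriched Tnnt2 and Pln were not called, with 0.45 and 0.23. Nppa, the atrial natriuretic peptide gene, and Mybpc3 were in no tissue class and were not called, with -0.36 where -0.05 was predicted for Nppa and -0.02 where 0.03 was predicted for Mybpc3.

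**Figure D2:**
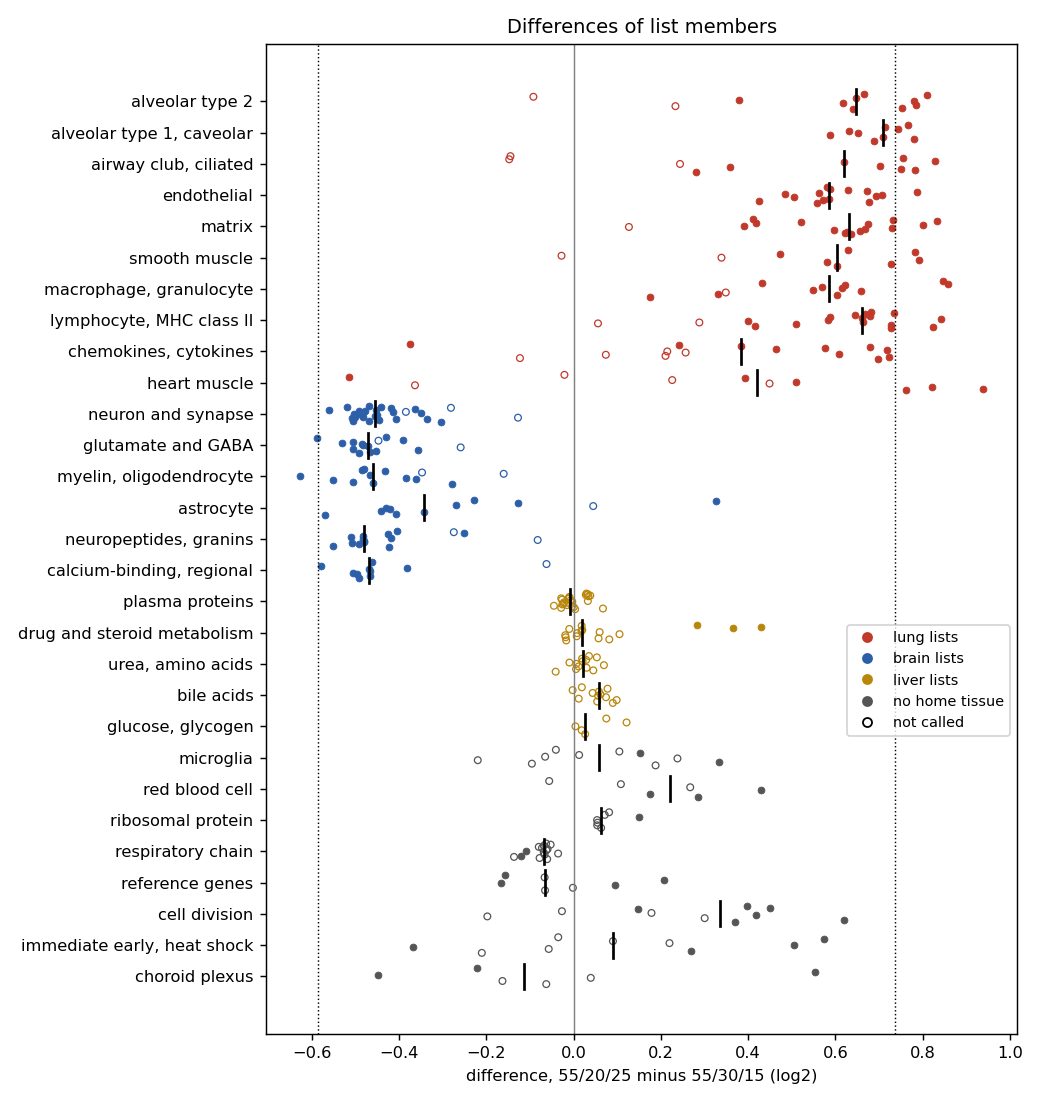
Difference between 55/20/25 and 55/30/15 (log2, horizontal axis) of each member of 29 gene lists (rows), filled where called and open where not, with the list median as a black bar and dotted lines at the differences of a lung-only (0.74) and a brain-only transcript (-0.58). Alveolar, vessel and matrix genes crowd between 0.4 and 0.8, neuronal and myelin genes between -0.6 and -0.3, and plasma protein genes around 0.

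Neuronal genes fell together. Of 28 measured genes of neurons and synapses, 25 were lower and 0 higher, with a median of -0.45 where -0.54 was predicted. Map2, a protein that stabilises the microtubules of dendrites, had 10.20, 10.24 and 10.18 in 55/20/25, against 10.68, 10.77 and 10.65 in 55/30/15. All 3 arrays with less brain were below all 3 with more, and Map2 was 1.40-fold lower (-0.49 ± 0.09 log2, SE, limma adjusted p = 1.63e-04). The neurofilament gene Nefl had a difference of -0.50, the synaptic vesicle gene Syp -0.45 and the RNA-binding protein gene Elavl4 -0.56. Sv2b, Ncam1 and Dlg4 were not called, with differences of -0.13, -0.38 and -0.28. Of these, Sv2b was in no tissue class, with 11.64 in pure brain and 11.41 in pure lung, and -0.04 was predicted for it.

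Transmitter genes moved by similar amounts. Of 15 measured genes of glutamate and GABA signalling, 13 were lower and 0 higher, with a median of -0.47. Gad1, which encodes the enzyme that makes the inhibitory transmitter GABA, had 9.65, 9.63 and 9.65 in 55/20/25, against 10.15, 10.14 and 10.15 in 55/30/15. The replicate arrays differed by a few hundredths at most, and Gad1 was 1.42-fold lower. The AMPA receptor gene Gria2 had a difference of -0.47, and Slc17a7, which loads glutamate into vesicles, -0.59. Gad2 and Grin2b were not called, with differences of -0.45 and -0.26.

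Glial genes fell, with exceptions among the astrocyte genes. Of 13 measured genes of myelin and oligodendrocytes, 11 were lower and 0 higher, with a median of -0.46. The myelin gene Mobp had 10.79, 10.78 and 10.70 in 55/20/25, against 11.22, 11.22 and 11.21 in 55/30/15. Its difference of -0.46 was larger than the spread in either group, and the oligodendrocyte membrane gene Opalin reached -0.63. The lineage factors Olig2 and Sox10 were not called, with -0.16 and -0.35. Olig2 was in no tissue class, with 4.03 in pure brain and 3.98 in pure liver, and -0.06 was predicted for it. Of 11 astrocyte genes, 9 were lower and 1 was higher, with a median of -0.34, but only 6 of the 11 were brain-enriched. Slc1a2, Ndrg2 and Glul were lower and in no tissue class. Slc1a2 had 6.67 in pure liver and 6.05 in pure brain, and differed by -0.42 where -0.10 was predicted. Gfap, the intermediate filament of astrocytes, had 8.72, 8.73 and 8.77 in 55/20/25, against 9.31, 9.38 and 9.24 in 55/30/15, and was 1.49-fold lower. The glycolytic gene Aldoc had a difference of -0.44 and the calcium-binding gene S100b -0.41. Ndrg2 had -0.13, and its call was lost without 55/20/25 replicate 2 (adjusted p = 0.0598) and without 55/30/15 replicate 2 (adjusted p = 0.0624).

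Fgfr3, a fibroblast growth factor receptor listed with the astrocyte genes, was higher. Its levels were 9.22, 9.27 and 9.21 in 55/20/25, against 8.91, 8.93 and 8.88 in 55/30/15. The groups did not overlap, and the difference was 0.33 ± 0.05 (SE, limma adjusted p = 6.31e-06) where 0.23 was predicted. Fgfr3 was lung-enriched in the pure arrays, with 10.35 in lung and 8.83 in brain. Aldh1l1, another astrocyte gene, was liver-enriched and was not called at 0.04.

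Of 15 measured neuropeptide and granin genes, 13 were lower and 0 higher, with a median of -0.48. Cck, a gut and brain peptide, had 9.40, 9.30 and 9.26 in 55/20/25, against 9.78, 9.81 and 9.82 in 55/30/15, a 1.40-fold lower level without overlap. The secretory granule genes Scg5 and Scg3 had differences of -0.48 and -0.51, and Npy and Cartpt were not called at -0.08 and -0.27. Genes of calcium-binding proteins and brain regions were lower in 9 of 10 cases, with a median of -0.47. They included Calb1 (-0.49), which marks Purkinje cells among others, and Neurod1 (-0.58), a neuronal transcription factor that granule cells of the cerebellum and hippocampus use. Zic1 was not called at -0.06.

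**Figure D3:**
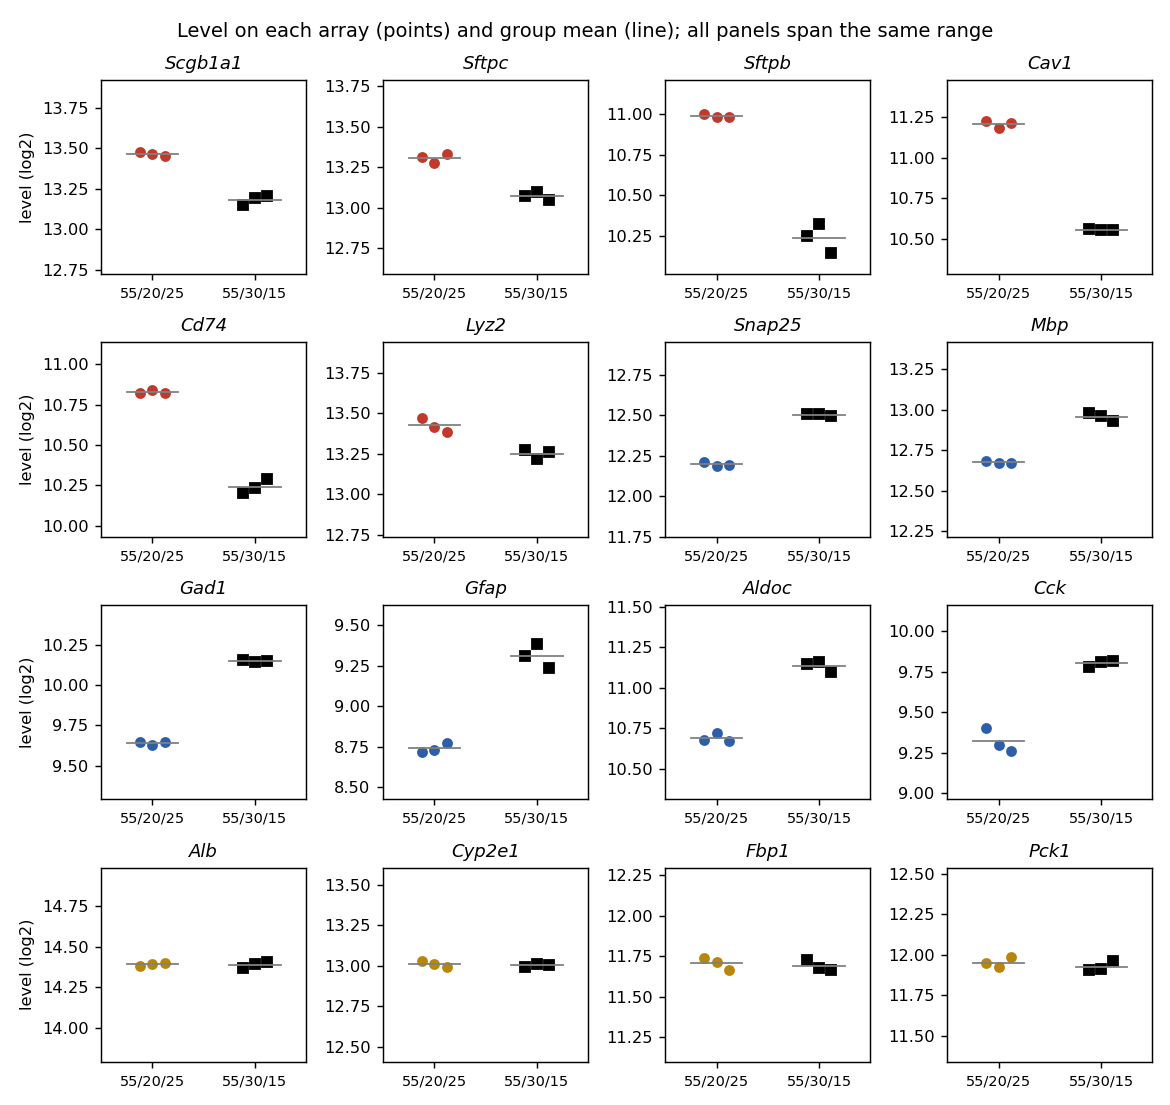
Log2 level (vertical axes) of 16 named genes on each array of 55/20/25 (coloured circles, left) and 55/30/15 (black squares, right), with group means as grey lines and the same span in each panel. Lung genes sit higher on the left, brain genes lower, and the 4 liver genes of the bottom row overlap between the mixtures.

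Liver genes differed little between the mixtures. None of the 24 measured plasma protein genes was called, with a median of -0.01 and a range of -0.05 to 0.07. The limma fit also called 0 genes among 13 of urea and amino acid metabolism, 12 of bile acids and 5 of glucose and glycogen. At an unadjusted p under 0.05 it gave 0 plasma protein, 0 urea and 0 bile acid genes and 1 glucose gene, Pygl (0.12), which was chosen for naming after its value was seen. Alb had 14.38, 14.40 and 14.40 in 55/20/25, against 14.37, 14.39 and 14.40 in 55/30/15, above its 14.31 in pure liver. Cyp2e1, a drug-oxidising cytochrome, had 13.03, 13.01 and 12.99 in 55/20/25, against 12.99, 13.01 and 13.01 in 55/30/15. The arrays of both mixtures interleaved, and the 95% interval of the Cyp2e1 difference ran from -0.07 to 0.08. That of Cps1, the entry enzyme of the urea cycle, was wider, from -0.24 to 0.15.

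The liver-enriched class as a whole had a small positive median of 0.05, where 0.0035 was predicted, and 73.6% of its differences were positive. The size of that median depended on the scaling of the arrays. It was 0.03 after median centring, 0.04 after repeated quantile normalization and 0.03 after subtracting the 5th percentile of each array. Under the shift to equal hybridisation controls it was 0.10. Bile acid genes had a median of 0.06, with 11 of 12 differences positive. The 74 liver-enriched probe sets called higher had a median of 0.22, and 71 of them were higher in pure lung than in pure brain. The 3 largest genes among them were Tfec, a transcription factor gene (0.34), Wfdc3 (0.33) and Fbxo4, an F-box protein gene (0.32). Tfec had 5.42, 5.48 and 5.52 in 55/20/25, against 5.12, 5.03 and 5.23 in 55/30/15. Its arrays did not overlap, but the call of Tfec was lost without any 1 of the 3 arrays of 55/20/25 or replicates 1 and 2 of 55/30/15, and that of Wfdc3 without any 1 of the 6 arrays. Ak4, a mitochondrial adenylate kinase gene, was lower, at -0.18, with pure levels of 7.92 in brain and 4.60 in lung. The count of 74 dropped to 31 without 55/20/25 replicate 1, to 40 without its replicate 2 and to 46 without 55/30/15 replicate 2.

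Enzymes of drug and steroid metabolism were listed as liver genes, and 3 of 16 were higher, beside 2083 of all 14217 genes. Fmo1, a flavin monooxygenase, had 9.80, 9.73 and 9.76 in 55/20/25, against 9.36, 9.32 and 9.32 in 55/30/15. The difference of 0.43 ± 0.05 (SE, limma adjusted p = 9.06e-08) had no overlap behind it, and pure lung had 10.77, pure liver 9.77 and pure brain 6.03. The retinal dehydrogenase gene Aldh1a1 was 0.37 higher and Hsd11b1, which regenerates active glucocorticoid, 0.28 higher. Both also had their highest pure level in lung, 11.23 and 11.69.

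Genes without a home tissue moved by smaller amounts or split. Their lists are small, and of all 14217 genes with 1 probe set each, 2083 were called higher and 1460 lower. All 15 respiratory chain genes had negative differences, with a median of -0.07 where -0.08 was predicted, but only Ndufv1 and Uqcrc2 were called, at -0.12 and -0.11. All 7 measured ribosomal protein genes had positive differences, with a median of 0.06, and Rplp0 was called at 0.15. The call of Ndufv1 was lost without any 1 of the 6 arrays other than 55/30/15 replicate 2, and that of Rplp0 without replicate 1 or 2 of 55/20/25 or replicate 2 of 55/30/15. Among 10 cell division genes 6 were higher, including the mitotic kinase gene Cdk1 (0.62), the replication gene Mcm2 (0.45) and Pcna (0.15).

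Blood and microglia lists were mixed. Hbb, which encodes beta globin, had 12.84, 12.82 and 12.80 in 55/20/25, against 12.65, 12.60 and 12.69 in 55/30/15, and was 0.18 higher. Alas2, the heme synthesis gene of erythroid cells, was 0.43 higher. In all, 3 of 6 red blood cell genes were higher and 0 lower, beside 2083 and 1460 of all 14217 genes. Of 10 microglia genes 2 were higher, beside 2083 of all 14217 genes. The 2 were the macrophage growth factor receptor gene Csf1r (0.33), lung-enriched, and the complement gene C1qb (0.15), liver-enriched. P2ry12, a purinergic receptor of microglia and the list's brain-enriched member, was not called at -0.22 (limma adjusted p = 0.051).

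Reference genes used to normalise expression assays did not all hold still. B2m and Gusb were higher, by 0.09 and 0.21, and Ywhaz and Pgk1 were lower, at -0.17 and -0.16, while Tbp, Hprt1 and Sdha were not called, with -0.0017, -0.07 and -0.07. B2m lost its call without any 1 of the 6 arrays (adjusted p = 0.0732 to 0.143). Pgk1 lost it without any 1 other than 55/30/15 replicate 1, and Gusb without 55/20/25 replicate 2 or 55/30/15 replicate 1. Of 9 immediate early and heat shock genes, 3 were higher and 1 lower, beside 2083 and 1460 of all 14217 genes. Hspb1, a small heat shock protein gene, was 0.57 higher and lung-enriched, and the early growth response gene Egr1 was brain-enriched with a difference of -0.37. Of 6 choroid plexus genes, the water channel gene Aqp1 was 0.55 higher, and Enpp2 and Otx2 were lower at -0.22 and -0.45, with the call of Otx2 lost without replicate 2 or 3 of 55/20/25 or replicate 1 or 3 of 55/30/15. Ttr, the thyroxine carrier made by liver and choroid plexus, was not called at -0.06.

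The largest differences among genes above the median level were all lung-enriched upward and brain-enriched downward. Ighvl1 was 1.05 higher, with 7.27, 7.25 and 7.26 in 55/20/25, against 6.15, 6.08 and 6.39 in 55/30/15. Pla2g2d, a secreted phospholipase A2 gene, had 7.44, 7.36 and 7.53 in 55/20/25, against 6.32, 6.39 and 6.52 in 55/30/15. Its difference of 1.03 ± 0.09 (SE, limma adjusted p = 5.21e-10) exceeded the predicted 0.62, but the departure did not pass the test (adjusted p = 0.137). Aoc1, which degrades histamine and other diamines, the epithelial keratin gene Krt7, Ooep, the glutathione peroxidase gene Gpx2, the calcium-binding protein gene S100g and Prr15l followed, at 0.98 to 0.91.

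Downward, Ildr2 led with 6.57, 6.54 and 6.70 in 55/20/25, against 7.28, 7.32 and 7.39 in 55/30/15, a 1.66-fold lower level (-0.73). The cadherin gene Cdh7 had -0.70 and the neural adhesion gene Chl1 -0.66. C8h11orf87 and Lrrc4c, a synaptic adhesion gene, both had -0.66, the striatal phosphodiesterase gene Pde10a -0.64, and Tmem229a and Opalin -0.63 each. Absence of overlap between the arrays was a condition for choosing these 8 genes and the 8 upward ones.

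The observed differences followed those predicted from the pure tissues. Across all 31042 probe sets, which share the arrays and are not independent, Pearson's r was 0.898 with a slope of 1.19. Over the 9474 probe sets with a predicted difference of at least 0.1, r was 0.955, the slope was 1.18 and 98.5% had the predicted sign. Of the probe sets called higher 3149 (99.7%) had a positive prediction, and of those called lower 2916 (99.5%) had a negative one.

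Detection depended on the predicted size. Of probe sets with a prediction from 0.1 to 0.2, 36.0% were called higher, from 0.2 to 0.3 66.9%, from 0.3 to 0.4 85.6%, and from 0.5 to 0.6 all 244. For negative predictions, 28.9% were called lower from -0.2 to -0.1, 56.5% from -0.3 to -0.2, 80.7% from -0.4 to -0.3 and 98.1% below -0.5. Between 0 and 0.1, 3.72% were called higher, and between -0.1 and 0, 1.79% were called lower.

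**Figure D4:**
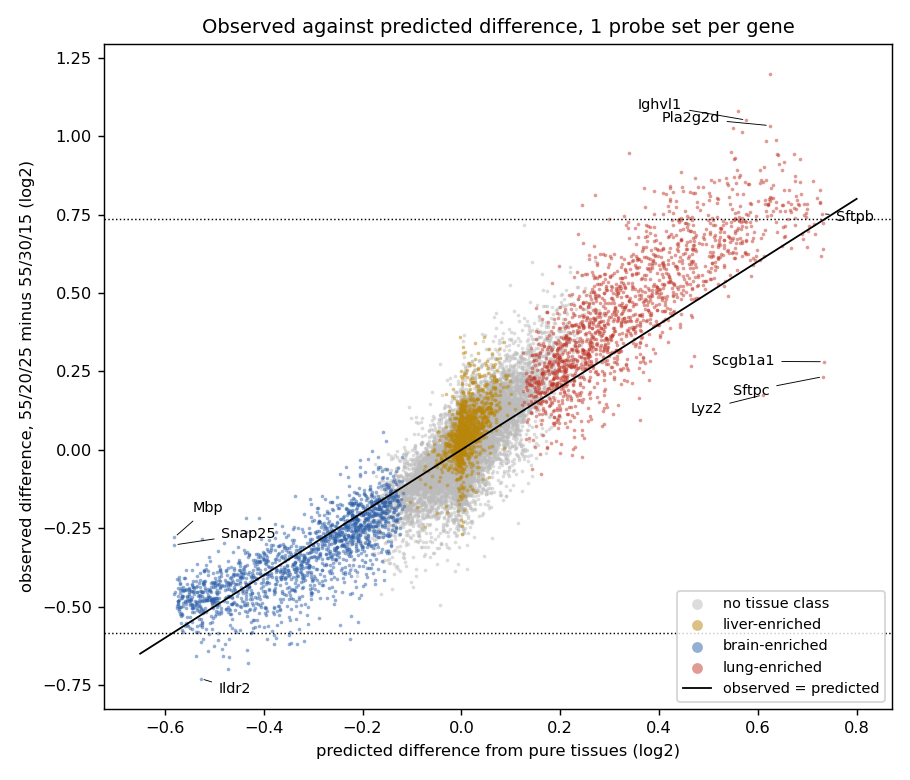
Observed difference between 55/20/25 and 55/30/15 (log2, vertical axis) against the difference predicted from the pure tissues (log2, horizontal axis), 1 point per gene for 14217 genes, coloured by tissue class, with the line of equality and dotted lines at 0.74 and -0.58. Lung-enriched genes lie above the line over most of its range, and Sftpc, Scgb1a1, Lyz2, Mbp and Snap25 lie nearer to 0 than predicted.

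Lung-enriched probe sets differed by more than predicted in the median, 0.40 against 0.29, and brain-enriched ones by slightly more, -0.34 against -0.29. In lung-enriched probe sets the excess lay at pure levels from 6 to 12. For lung-enriched probe sets with a pure lung level from 8 to 10, the median was 0.47 where 0.34 was predicted, and over 12 it was 0.58 where 0.58 was predicted. For brain-enriched probe sets, the median was -0.34 from 6 to 8 where -0.28 was predicted, and -0.34 over 12 where -0.47 was predicted. The share called followed the pure level too, from 22.6% of 403 lung-enriched probe sets under 6 to 98.6% of 347 from 10 to 12, and from 22.5% of 440 brain-enriched probe sets under 6 to 98.7% of 377.

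**Figure D5:**
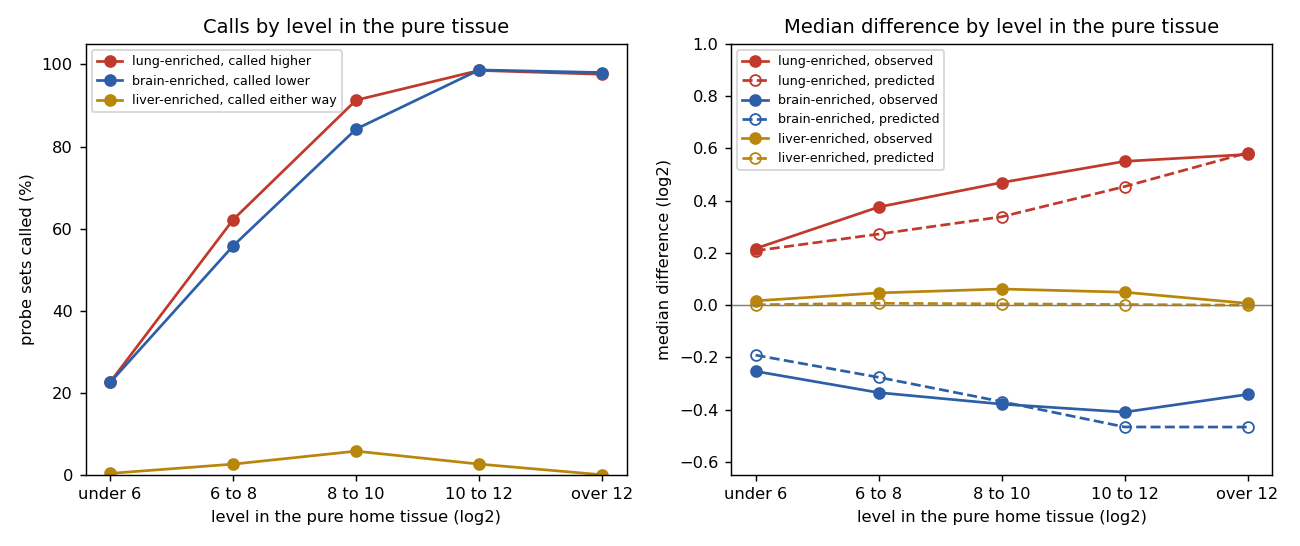
Left, probe sets called (%) and right, median observed (filled, solid) and predicted (open, dashed) difference (log2), by log2 level in the pure home tissue (horizontal axes) for lung-enriched, brain-enriched and liver-enriched probe sets. The lung median exceeds its prediction at levels from 6 to 12 and meets it over 12, and the brain median over 12 is smaller than predicted, -0.34 where -0.47 was predicted.

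Some differences passed the bounds of linear mixing. Of the probe sets called higher, 235 exceeded 0.74, all lung-enriched, with pure lung levels from 5.78 to 12.66 and a largest difference of 1.2. Of those called lower, 83 were below -0.58, all brain-enriched. None of these departed from its own prediction after adjustment, and 149 of the 235 and 26 of the 83 did at an unadjusted p under 0.05. These probe sets were chosen for differences that no prediction can reach. Each therefore lay beyond its prediction by choice, and the unadjusted counts are no test of the bounds.

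Some lung genes with high levels in the pure tissue differed by less than predicted. Scgb1a1, the secretoglobin of airway club cells, had 13.48, 13.46 and 13.45 in 55/20/25, against 13.15, 13.19 and 13.21 in 55/30/15. Scgb1a1 was 1.21-fold higher (0.28 ± 0.08 log2, SE, limma adjusted p = 0.0102), although pure levels of 14.04 (lung), 3.85 (liver) and 3.73 (brain) gave a prediction of 0.73. Lyz2, the lysozyme of macrophages and type 2 cells, had 13.47, 13.42 and 13.39 in 55/20/25, against 13.27, 13.22 and 13.26 in 55/30/15, a difference of 0.17 where 0.61 was predicted. Neither gene had overlapping groups, and the call of Lyz2 was lost without replicate 1 or 2 of 55/20/25 or replicate 2 or 3 of 55/30/15 (adjusted p = 0.0533 to 0.116).

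Scgb1a1 and Lyz2 were the 2 departures from the prediction (0.00644% of probe sets), both below it. The observed minus the predicted difference was -0.45 for Scgb1a1 (limma adjusted p = 0.0448) and -0.44 for Lyz2 (limma adjusted p = 3.17e-04). No probe set departed above, and at an unadjusted p under 0.05 there were 1310 above (4.22%) and 533 below (1.72%). When the prediction was made from the 9 other mixtures in place of the pure tissues, both were near 0, with departures of -0.04 for Scgb1a1 and -0.05 for Lyz2, and neither was called. The departure of Scgb1a1 was also lost without any 1 of the 6 arrays (adjusted p = 0.135 to 0.203).

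Sftpc, the surfactant protein made by type 2 cells alone, had 13.31, 13.28 and 13.33 in 55/20/25, against 13.07, 13.10 and 13.05 in 55/30/15. The groups were well apart, but the difference of 0.23 (95% interval -0.05 to 0.52) was not called in the fit over all arrays (limma adjusted p = 0.294). That fit gave Sftpc an SD of 0.17, with SDs of 0.56 in pure brain and 0.38 in pure liver beside 0.03 in each of the compared mixtures. In a fit of the 6 arrays alone, Sftpc was called at adjusted p = 0.012. Sftpc was predicted to differ by 0.73.

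Some brain probe sets with high levels had differences smaller than predicted. Snap25, a membrane fusion protein of synapses, had 12.21, 12.19 and 12.19 in 55/20/25, against 12.50, 12.51 and 12.49 in 55/30/15. Mbp, the myelin basic protein, had 12.69, 12.67 and 12.67 in 55/20/25, against 12.98, 12.96 and 12.93 in 55/30/15. Snap25 differed by -0.30 and Mbp by -0.28, where -0.58 was predicted for each. A second probe set of Mbp, with 13.37 in pure brain, averaged 11.59 in 55/20/25 and 12.12 in 55/30/15 and differed by -0.53, close to its prediction of -0.58. Snap25 and the first Mbp probe set passed the test, without overlap, and neither departure did (adjusted p = 0.137 for Snap25 and 0.0797 for Mbp).

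The same exchange at 50% liver, 50/30/20 against 50/40/10, gave 3702 probe sets (11.9%) higher and 2243 (7.23%) lower in 6 other arrays. Of the 3157 higher at 55% liver, 2509 (79.5%) were also called higher at 50%, which is 67.8% of the 3702. Of the 2930 lower at 55% liver, 1289 (44.0%) were also called lower at 50%, which is 57.5% of the 2243. With each array centred on its median, the balance at 50% liver turned over, with 2885 higher and 3746 lower. Medians of the lung-enriched class were 0.40 at 55% liver and 0.40 at 50% liver, where 0.29 and 0.32 were predicted. Those of the brain-enriched class were -0.34 and -0.23, where -0.29 and -0.24 were predicted. The median difference between the exchanges was -0.118 for brain-enriched probe sets, where -0.050 was predicted. For lung-enriched ones it was -0.036, where -0.035 was predicted.

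The mixing arithmetic differs between these exchanges. A transcript of lung alone would differ by 1 on the log2 scale between 20% and 10% lung, and one of brain alone by -0.415 between 30% and 40% brain. Sftpb differed by 0.75 at 55% liver and 1.07 at 50% liver, and Mfap4 by 0.80 and 1.16. Gad1 differed by -0.50 and -0.29, and Gfap by -0.57 and -0.35. For these 4 genes, given as examples, the difference between the exchanges was negative, the sign that the labelled shares give, while Ighvl1 went the other way with 1.05 and 0.96. No probe set passed the limma test of the difference between the exchanges in either direction, while 1815 had an unadjusted p under 0.05, 825 higher and 990 lower at 55% liver. Of these, 51 lung-enriched probe sets were higher and 212 lower, and 4 brain-enriched ones were higher and 329 lower. The median standard error of the difference between the exchanges was 0.13 over all probe sets, 0.15 for lung-enriched and 0.14 for brain-enriched ones. The predicted size was -0.26 for a lung-only and -0.17 for a brain-only transcript.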

How the data were processed

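Expression was measured in 42 arrays of 14 groups. The values deposited by the authors are log2 levels per probe set after RMA normalization, per the labels and the submitters' processing notes, and no RMA version is named in them. RMA gives arrays similar distributions of values. Of 31099 probe sets, 57 controls were left out. The platform annotation named 1 gene for 20826 probe sets and several for 436, which stayed unnamed, and did not list 9780. Gene statements used 1 probe set per gene, the one whose mean over the 42 arrays was highest (14217 genes). For the 120 genes chosen by rule for naming, no other probe set was called in the opposite direction. The other genes named were not checked for this.

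All 42 arrays entered 1 limma fit with a mean per group (limma 3.58.1, R 4.3.3; 28 residual and 4.56 prior degrees of freedom), adjusted by Benjamini-Hochberg over 31042 probe sets with a threshold of 0.05 and no limit on the fold. Predictions were share-weighted sums of pure means on the linear scale. Departures are observed minus predicted differences, with errors by the delta method. Shares came from non-negative least squares on 100 strongly enriched probe sets for each tissue, scaled by their highest pure mean. The steps were tested on simulated data. No pair of replicate arrays of the 6 shared more than 4 equal values, so each counted as 1 replicate, and the number of arrays limits the precision.

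Named were the 8 largest called differences each way without overlap between arrays and with a mean level above 5.80, the median of all probe sets, 3 members with the highest pure level per list with a home tissue and those called against it, the largest departures, the 3 largest liver-enriched calls each way, and 2 members plus the largest calls of the other lists. Other list members are named as examples, chosen after their values were seen, or as the ones not called. The mixtures, the 29 gene lists and these rules were chosen with earlier results of these data known. Alternatives covered the arrays fitted, the variance model, normalization, background, dim probe sets, probe sets per gene, the prediction and the share estimate, and each array was left out in turn. Tissue classes were drawn anew in each alternative fit, so counts and medians by class can cover different probe sets. Python 3.11.15 with matplotlib 3.10.9 drew the figures.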

Additional observations from a re-analysis of the deposited data

How the results depend on the processing

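No paired analysis was possible because the labels give the arrays no replicate numbers. The replicate numbers used here only name the arrays of a group in their order in the series. Repeated quantile normalization, a fit of the arrays compared, limma's variance trend and median centring left the counts of 55/20/25 against 55/30/15 within 1.5 times of those reported, with 2975 to 3310 higher and 2958 to 3375 lower. Shifting arrays to equal hybridisation controls did not: it gave 722 higher and 14 lower, 720 lung-enriched higher, 14 brain-enriched lower, 0 liver-enriched in either direction, 0 departures below, and 672 higher and 20 lower at 50% liver. The cause was not tested. In a new fit of 1 probe set per gene alone, 14217 features were tested and adjusted, and 1611 were lower, 1309 lung-enriched higher, 1259 brain-enriched lower, 1 liver-enriched lower, 7 departed above and 1234 were lower at 50% liver. With a 4-fold limit for enrichment, 1064 lung-enriched were higher, 1595 brain-enriched lower, and 13 and 1 liver-enriched higher and lower. Liver-enriched probe sets called lower, 2 as reported, were 9 with only the arrays compared, 14 after median centring, 6 after quantile normalization and 13 after subtracting the 5th percentile, and those called higher were 122 with dim probe sets left out. Departures above numbered 3 with the variance trend, 8 after centring, 1 after subtraction and 9 without dim probe sets. Departures below numbered 0 with only the arrays compared, 1 after quantile normalization and 0 with a prediction from the 9 other mixtures. A prediction by log2 means gave 267 above and 75 below. At 50% liver, 2885 were higher and 3746 lower after centring, and 1484 were lower after subtraction. The difference between the exchanges had 1 call lower with the variance trend and 2 after subtraction.

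The liver share difference was -0.13 points without division by the highest pure mean, a reversal, and 0.93 after subtraction of the 5th percentile. The brain difference was -10.4 and -11.4 points with 50 and 200 probe sets per tissue, -7.76 without division, -11.7 after centring and -11.8 after subtraction. The lung difference was 10.0, 10.9, 7.90, 11.3 and 10.8 points under these 5 settings.

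Leaving out each array in turn gave 2549 to 2851 higher and 2306 to 2456 lower, 1774 to 1847 lung-enriched higher, 1995 to 2054 brain-enriched lower, 31 to 68 liver-enriched higher and 1 to 3 lower, 0 departures above and 1 to 2 below, and 0 calls between the exchanges. At 50% liver it gave 2927 to 3161 higher and 1384 to 1597 lower, with 1409 without 50/30/20 replicate 2, 1384 without 50/40/10 replicate 1 and 1486 without its replicate 3. Share differences were 0.21 to 0.58 points for liver, -10.9 to -10.8 for brain and 10.2 to 10.6 for lung. Over the named genes, 1547 repeated differences kept their side of the threshold, 127 kept direction but lost the call, and 6 gained it. Of those called in either fit, 0 reversed. A change of sign where neither fit made a call was counted as kept. Subtracting the 5th percentile ended the calls of Map2, Gad1, Cldn11, Scg5, Scg3, Pcp4, Cdh7, Myh6, Ryr2 and Scgb1a1 among others, and a fit of the 6 arrays alone those of Ndrg2, Pcna and Mcm2 among others. The cause was not tested.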

Other observations

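The calls that ran against their predicted sign numbered 22 of 6087, 8 higher and 14 lower, and each had a predicted difference near 0. Among the 8 that were higher, Ppif, the mitochondrial cyclophilin gene, and Dgat1, which makes triglycerides, were liver-enriched. Ppif averaged 7.43 in 55/20/25 and 7.24 in 55/30/15, where pure liver had 8.64, brain 6.48 and lung 5.87 (difference 0.20, limma adjusted p = 0.027). Dgat1 averaged 7.89 in 55/20/25 and 7.74 in 55/30/15 (difference 0.15, limma adjusted p = 0.0493). Igf2bp3, an RNA-binding protein gene and also liver-enriched, averaged 6.68 in 55/20/25 and 6.45 in 55/30/15, with pure levels of 8.17 in liver, 4.01 in brain and 3.95 in lung. Most of the 14 that were lower had mixture levels under 4. These genes were chosen after their values were seen.

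Ttr stood at 13.33 in pure liver, 13.09 in pure brain and 4.51 in pure lung. It averaged 13.3 in both mixtures, and its difference of -0.06 was smaller than the predicted -0.16, a departure that did not pass the test.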
